A study of Rattus norvegicus with 12 samples.

Results

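The direct comparison of low with high network activity set hippocampal neurons silenced with tetrodotoxin (TTX) against the same kind of neurons disinhibited with bicuculline (BC). Its members were the 4 TTX arrays and the 4 BC arrays, taken by their labels from the 12 arrays of the series, and all 41012 noncontrol probes of the array. The remaining 4 arrays, of vehicle-treated neurons (CTL), were used only to place each gene between the 2 treatments. All cultures were primary, dissociated, high-density hippocampal cultures from E18.5 Sprague-Dawley rat embryos, treated for 48 h beginning at 10 to 13 days in vitro (DIV). TTX was given at 0.5 to 1 µM without a dose per array, BC at 20 µM, and CTL as 0.1% vehicle, which was DMSO in the labels and water in the study's methods. Whether the 4 RNA samples per group were taken from independent cultures is not given in the sources used here, so that the p-values below measure the spread between samples, which may be technical.

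TTX blocks the voltage-gated Na+ channels that carry action potentials, and BC blocks GABA-A receptors, the channels of fast inhibition, so that a culture becomes silent with one and fires in synchronous bursts with the other. Calcium entry that follows firing drives transcription through CREB and related factors at cyclic AMP response elements (CRE), and through FOS and JUN dimers at AP-1 sites. Lasting changes of firing are also known to alter channels, receptors and inhibitory transmission, a form of homeostatic plasticity.

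Signals are given as log2 of the scanner's processed intensity after quantile normalization, and a difference is BC minus TTX on that scale unless stated otherwise, so that 1 unit is a doubling. Each gene's value is that of its brightest probe, and a gene was called when the fold was at least 1.5 and the Benjamini-Hochberg adjusted p of limma was under 0.05, adjusted over all probes tested. Between 74.1% and 78.1% of probes were well above background on each array, and 0 to 2 spots were saturated. Each of the 4 slides held 1 array per group. Arrays of the same pair of slides deviated from their group means together (r = 0.44 to 0.69 between TTX and BC arrays of 1 slide pair, over all probes, as a description). No label gives these pairs, and they were formed from such deviations in these data, so that r describes them and is not a test. The neuronal markers were abundant in every group, with the mean over 10 markers at 14.39 to 14.62 per array, and 1 of the 10 was called. In such mixed cultures fewer cells of a type and less RNA per cell cannot be told apart.

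Low and high activity separated many genes. Of 41009 probes tested, 4579 were called (11.2%). Of 35698 genes tested, 3879 were called between TTX and BC (10.9%), 2209 higher with BC (6.19%) and 1670 higher with TTX (4.68%), and the median difference over all genes was -0.02. TTX and BC values did not overlap for 9220 of 35700 genes (25.8%). Against CTL each treatment called fewer genes. TTX lowered 960 (2.69%) and raised 530 (1.48%), and BC raised 762 (2.13%) and lowered 524 (1.47%). These 2 comparisons share the CTL arrays, so that an error in CTL moves both.

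The CTL level then placed each called gene. A total of 315 genes (8.12% of those called) spanned the range, which means that TTX and BC each moved them past the threshold in opposite directions from CTL. A gene was assigned to 1 treatment when that treatment was called against CTL, the other was not, and CTL itself differed from the midpoint of TTX and BC (adjusted p under 0.05, met by 2.33% of all genes). This held for 209 genes on the TTX side (5.39%) and for 146 on the BC side (3.76%). A further 676 and 587 genes were called with TTX or with BC alone while their CTL level was not distinguishable from the midpoint, and they are not counted as moved by a single treatment. For 1938 genes (50% of those called) only the direct comparison passed, with a median difference of 0.745 where BC was higher. Their CTL level lay at a median of 50.1% of the way from TTX to BC.

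**Figure D1:**
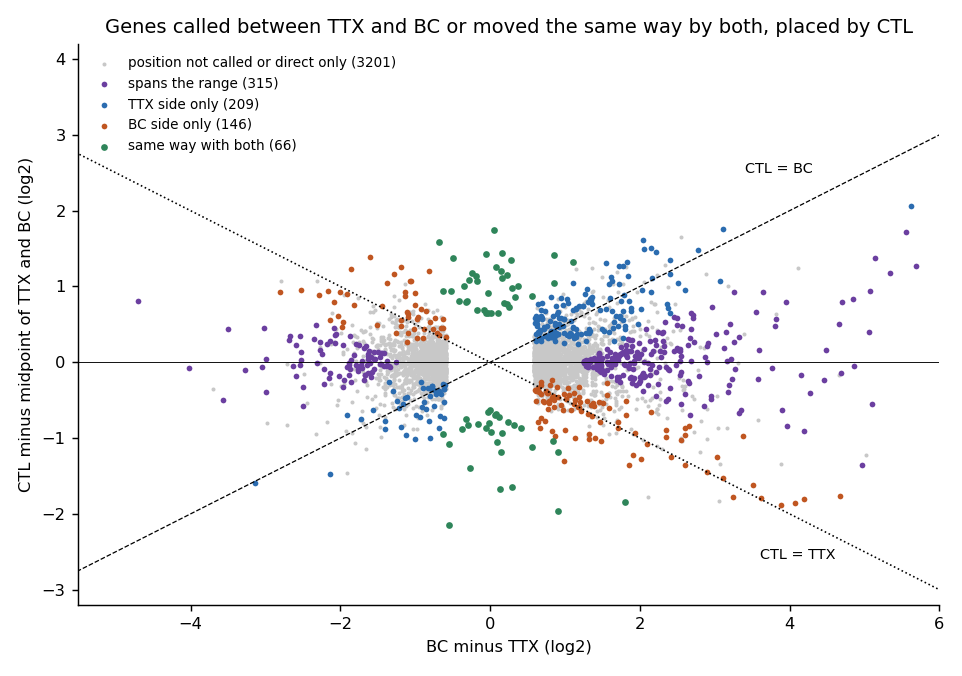
Each point is a gene called between TTX and BC, or moved the same way by both. The horizontal axis is the BC minus TTX difference and the vertical axis the CTL mean minus the midpoint of the TTX and BC means, both in log2 units. Genes on the dashed line had CTL equal to BC and genes on the dotted line CTL equal to TTX. The 315 spanning genes lie between the 2 lines, and the 209 TTX-side and 146 BC-side genes nearer to 1 of them. The 66 genes moved the same way by both treatments lie beyond the lines, and 8 of them were also called between TTX and BC.

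The counts of single-treatment genes depended on the CTL arrays. Without CTL replicate 1 the TTX side held 100 genes and the BC side 71, without CTL replicate 3 the TTX side held 103, and without CTL replicate 2 the BC side held 82. With the arrays of each slide pair averaged, 4256 probes were still called between TTX and BC, whereas BC against CTL had 0 genes called in limma (1971 at an unadjusted p under 0.05 and a fold of 1.5), and 0 genes were placed as spanning, TTX-side or BC-side. At the edge of the fold threshold, ESYT1 (difference 0.5851) and CTNNAL1 (-0.585) were called, and C3H11ORF91 (0.5848) was not. Where a called and named gene had further probes, 447 of 484 had the same sign, 284 were called the same way and 1 was called the opposite way.

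Genes that spanned the range were mostly higher with BC (226 of 315), with a median difference of 2.05 against 1.88 for the 89 higher with TTX. CRHBP, the binding protein that sequesters corticotropin-releasing hormone, read 9.33, 8.97, 8.77 and 8.85 on the TTX arrays, 13.54, 13.23, 13.7 and 13.43 on the CTL arrays and 14.47, 14.51, 14.58 and 14.6 on the BC arrays. It was 47.1-fold higher with BC than with TTX (difference 5.56, SE 0.128, limma adjusted p = 6.48e-09), and within the 4 slides the difference was 5.27 to 5.7. The 3 groups were fully apart, and CTL lay 80.9% of the way towards BC. CORT, the somatostatin-like peptide cortistatin, read 8.11, 8.18, 7.65 and 7.92 with TTX, 11.7, 12.13, 12.07 and 11.76 in CTL and 12.96, 12.97, 13.28 and 13.2 with BC (35.2-fold, difference 5.14, SE 0.141). MUSTN1, a small nuclear protein known from muscle and bone, read 8.36 to 8.7 with TTX, 12.15 to 12.79 in CTL and 13.75 to 14.07 with BC (40.6-fold). In all 3 genes the step from TTX to CTL was larger than that from CTL to BC, and the CTL level was above the midpoint (limma adjusted p = 9.22e-05, 0.000461 and 0.000891 for CRHBP, CORT and MUSTN1).

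In HPSE and ARHGDIB the measured step from CTL to BC was the larger. HPSE, the heparanase that cleaves heparan sulfate chains of the extracellular matrix, read 5.65, 5.67, 5.71 and 5.85 with TTX, 7.7, 7.66, 8.15 and 7.36 in CTL and 10.55, 10.83, 11.14 and 10.75 with BC (34.2-fold, difference 5.1, SE 0.162). ARHGDIB, an inhibitor of small GTPase cycling, read 5.52 to 5.83 with TTX, 6.23 to 7.58 in CTL and 10.32 to 11.01 with BC, and its CTL level lay 22.7% of the way, below the midpoint (adjusted p = 0.00992, limma). The groups of both genes were apart, whereas the position of CTL in HPSE was not called (limma adjusted p = 0.0815). MEPE, a phosphoglycoprotein of mineralized matrix, had a difference of 5.07 and CTL at 68.5% of the way, and PTHLH, the parathyroid hormone-related peptide, 4.84 and 67.3%, so that in both the measured step between TTX and CTL was the larger. CYP11B1, a steroid 11-beta-hydroxylase, had a difference of 4.69 and CTL at 47%. The metabotropic glutamate receptor GRM8 was centred, at 5.58 to 6.05 with TTX, 7.15 to 7.37 in CTL and 8.29 to 9.04 with BC, with CTL 50.1% of the way.

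Several large differences rested on probes close to background. F2RL2, a protease-activated receptor, and IL13RA2, a decoy receptor for interleukin 13, were not well above background on the TTX arrays. The BC level was at least 18.8-fold and at least 15.9-fold that with TTX, the bound being set by the dimmest probes well above background. PERM1, a regulator of muscle metabolism, was above background on 4 BC arrays and 1 CTL array, with BC at least 6.49-fold over TTX. The size of many differences changed with the treatment of background, for probes well above it too. With the normexp correction the differences of CRHBP and HPSE were 5.41 and 4.05, against 2.03 for F2RL2, 1.86 for IL13RA2 and 1.26 for PERM1, whose main values were 4.86, 4.46 and 5.02. DEPP1, above background on 1 of 4 TTX arrays, went from 4.49 to 1.87. Of genes well above background on all TTX and BC arrays, ARHGDIB went to 3.83 with normexp, CYP11B1 to 2.93, MEPE to 4.2 and GRM8 to 1.95. All of these remained called.

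**Figure D2:**
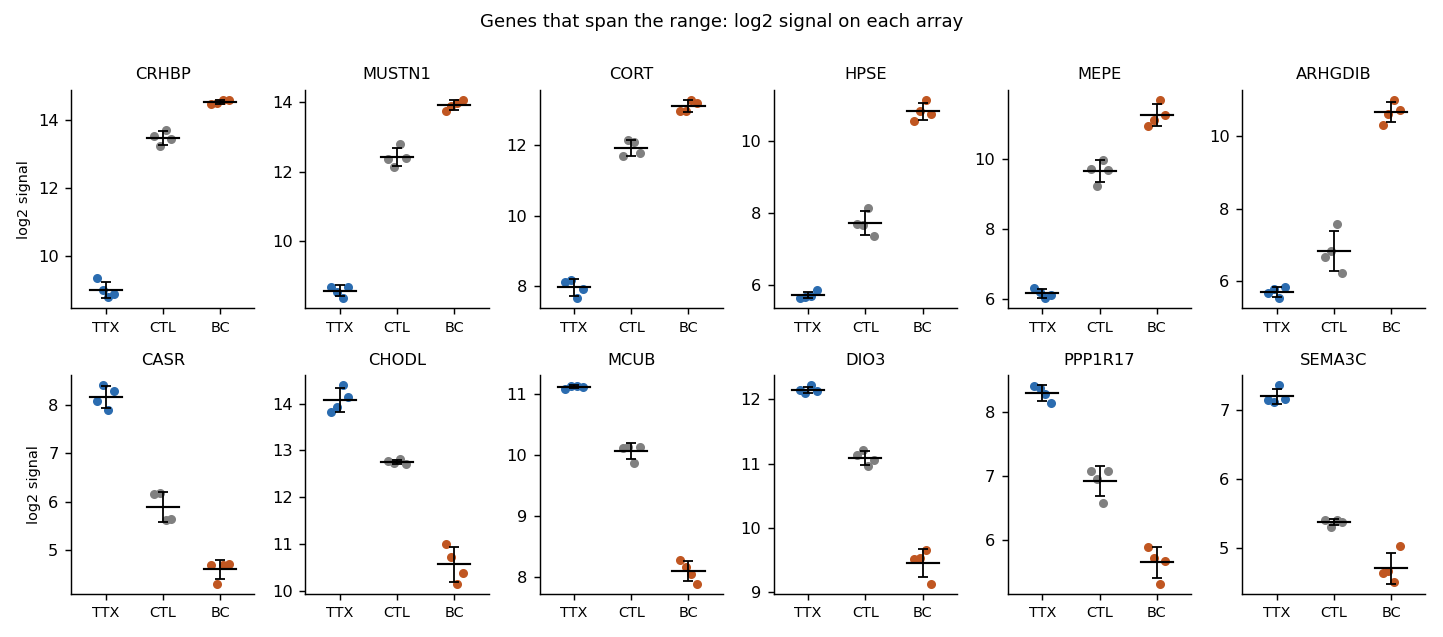
Log2 normalized intensity of 12 genes that spanned the range by their brightest probe, for TTX, CTL and BC. Each array is 1 point, with a bar at the mean ± SD of 4 arrays. The upper genes (CRHBP, MUSTN1, CORT, HPSE, MEPE and ARHGDIB) climb from TTX through CTL to BC without overlap, and the lower genes (CASR, CHODL, MCUB, DIO3, PPP1R17 and SEMA3C) fall.

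The spanning genes that were higher with TTX included a receptor, a calcium regulator and a guidance cue. CASR, the calcium-sensing receptor, read 8.07, 8.4, 7.9 and 8.28 with TTX, 6.15, 6.17, 5.61 and 5.63 in CTL and 4.69, 4.3, 4.69 and 4.71 with BC, an 11.8-fold difference (-3.56, SE 0.167, limma adjusted p = 2.51e-07, and -2.06 with normexp). CHODL, a membrane C-type lectin, read 13.81 to 14.39 with TTX, 12.72 to 12.82 in CTL and 10.15 to 11 with BC (11.4-fold). MCUB, the inhibitory subunit of the mitochondrial calcium uniporter, read 11.09, 11.14, 11.14 and 11.12 with TTX, 10.12, 10.14, 9.88 and 10.13 in CTL and 8.28, 8.16, 8.06 and 7.89 with BC (8.13-fold). None of these 3 genes had overlapping groups. DIO3, which inactivates thyroid hormone, was 6.46-fold higher with TTX, PPP1R17, an inhibitor of protein phosphatases, 6.2-fold and SEMA3C, a secreted semaphorin, 5.63-fold. With normexp the difference of PPP1R17 was -1.76 and that of SEMA3C -1.24. For SEMA3C the larger step lay between CTL and TTX (1.82 for TTX minus CTL and -0.67 for BC minus CTL), and for DIO3 between CTL and BC (1.06 and -1.64). The CTL level was off the midpoint for SEMA3C (limma adjusted p = 0.0102) and was not called for DIO3 (0.163). Second probes of both genes were called higher with TTX than with BC but did not span. That of DIO3 (-1.75) was not called for TTX minus CTL (0.51, limma adjusted p = 0.125). That of SEMA3C (-2.22) was not called for BC minus CTL (-0.72, limma adjusted p = 0.0823). GPR139, an orphan receptor, was not well above background with BC and was at least 4.43-fold higher with TTX (-3.04, and -0.7 with normexp). SLC44A5 (at least 2.38-fold) was in the same position, and its call was lost with the normexp correction (-0.43) and without background correction (-0.52).

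Other genes with large differences towards TTX were not placed as spanning. PKD2L2, a member of the polycystin channel family, was at least 5.43-fold higher with TTX (-3.7, and -0.86 with normexp). CXCL9, a chemokine, had a difference of -2.71, but it was well above background on only 1 BC array and 2 CTL arrays, and 1 BC array read 4.71 against 2.04 to 2.68 on the others. Its difference was -0.7 with normexp, and its call was lost in the 8 arrays alone with the replicate number as a block. Both were called for TTX against CTL, and their CTL level was not distinguishable from the midpoint (limma adjusted p = 0.847 and 0.482). EPB42 (at least 2.5-fold) was called in the direct comparison only and SLCO6C1 (at least 1.91-fold) for TTX against CTL as well, and neither stayed called with normexp, without background correction or in the deposited log2 values. GPR101 (at least 3.02-fold) was lowered by BC from CTL, and it lost its call with normexp and in the deposited values.

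In the genes assigned to the TTX side CTL lay nearer to BC than to TTX, and BC minus CTL reached 0.748 in size. Genes described below as moved by 1 treatment only are so by these calls. A smaller step with the other treatment is not excluded, and in some genes it missed only the fold threshold. For 158 of the 209 the 95% interval of BC minus CTL lay within 1.5-fold in both directions, and its median size was 0.15. In 164 TTX lowered the gene and in 45 it raised it. VGF, the precursor of several neuropeptides, read 14.33, 14.38, 14.31 and 14.63 with TTX, 16.94, 16.88, 17.37 and 16.92 in CTL and 17.44, 17.55, 17.42 and 17.53 with BC. It was 8.41-fold lower with TTX than with BC (difference 3.07, SE 0.113, limma adjusted p = 5.79e-08), whereas BC minus CTL was 0.46 (95% interval 0.21 to 0.71). TAC1, the substance P precursor, read 11.29 to 11.38 with TTX, 13.18 to 13.33 in CTL and 13.66 to 13.81 with BC (5.14-fold), with BC minus CTL at 0.42 (0.29 to 0.54). The TTX arrays of both genes stood far below all others, and CTL and BC were also apart by a smaller step that missed the fold threshold.

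Of the 24 genes of GABA synthesis, transport and receptors, 4 were on the TTX side, GABRD, GAD1, GAD2 and SLC32A1. The mean level of interneuron markers, GAD1 and GAD2 among them, was also lowest with TTX (10.53 to 10.65 per array, against 11.33 to 11.42 in CTL and 11.47 to 11.59 with BC), and its part in these values was not tested. GABRD, the delta subunit of extrasynaptic GABA-A receptors, read 9.3, 9.25, 9.11 and 9.24 with TTX, 11.26, 11.11, 11.26 and 11.14 in CTL and 11.26, 11.12, 11.31 and 11.32 with BC. CTL and BC overlapped (BC minus CTL 0.06, 95% interval -0.09 to 0.21) and BC was 4.09-fold above TTX. GAD1 and GAD2, the 2 GABA-synthesizing enzymes, were 3.43-fold and 3.28-fold lower with TTX than with BC, with BC minus CTL at 0.22 and 0.38. KCNS3, a modulatory subunit of voltage-gated K+ channels, was 3.68-fold lower, and RASL11A, a small GTPase, 3.69-fold. The kinase CAMK4, the G protein regulator RGS2 and the cholesterol carrier STARD4 were 2.86-fold, 3.13-fold and 3.01-fold lower. In CAMK4, RGS2, GAD2 and KCNS3, BC minus CTL (0.35, 0.37, 0.38 and 0.22) had a limma adjusted p under 0.05 and missed only the fold threshold. In GABRD, GAD1 and RASL11A it missed both. HHATL (6.09-fold), TRIM54 (6.88-fold), LOXL2, a lysyl oxidase (4.66-fold), and IFGGA2L1 (at least 4.78-fold) were, with VGF and TAC1, the 6 with the largest differences of the genes that met the conditions for naming. With normexp HHATL went from 2.61 to 1.27. TRIM54, LOXL2 and IFGGA2L1 were dim with TTX, on 0 to 3 of 4 TTX arrays above background, and with normexp their differences were 0.82, 0.81 and 0.72 against 2.78, 2.22 and 2.37.

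ARC, the synaptic immediate early gene, was on the TTX side with its highest values in CTL. It read 11.37, 11.23, 11.04 and 11.16 with TTX, 12.52, 12.34, 12.64 and 12.24 in CTL and 11.9, 12.13, 12.2 and 12.46 with BC, so that BC was 1.96-fold above TTX (limma adjusted p = 0.000294) and BC minus CTL was -0.26 (95% interval -0.55 to 0.02). Among the 45 genes raised on the TTX side was SEC14L3, a lipid-binding protein, at 9.2 to 9.48 with TTX, 7.34 to 7.93 in CTL and 7.07 to 7.75 with BC (3.75-fold). CTL and BC overlapped, and the TTX arrays stood above both. RNF182, a ubiquitin ligase, and OGN, a matrix proteoglycan, were 1.9-fold and 1.92-fold higher with TTX, and the call of OGN was lost with normexp (-0.55). FABP2 and ANGPT2 (2.18-fold and 2-fold) were no longer called after normexp, without background correction or in the deposited log2 values, and only 1 of the 2 other ANGPT2 probes was called.

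On the BC side, 95 genes were raised and 51 lowered, and for 96 of the 146 the 95% interval of TTX minus CTL lay within 1.5-fold. The raised genes included matrix metalloproteinases. MMP3, stromelysin 1, read 6.94, 7.26, 7.59 and 7.28 with BC, 3.95, 4.36, 5.33 and 3.81 in CTL and 5.05, 4.21, 3.98 and 4.22 with TTX, a 7.48-fold difference between BC and TTX (2.9, SE 0.332, limma adjusted p = 0.000101), which was 1.4 with normexp. TTX and CTL overlapped, though 1 array of each stood above the rest (5.05 and 5.33), and the interval of TTX minus CTL was wide (-0.73 to 0.74). MMP12, macrophage elastase, read 5.2 to 5.61 with BC and was not well above background with TTX or in CTL, so that it was at least 3.46-fold higher with BC than with TTX. The same held for OR10AL5B, an olfactory receptor gene (at least 3.4-fold), TMPRSS11D, a membrane serine protease (at least 2.87-fold), and GML (at least 1.97-fold). CNMD, chondromodulin, was not above background with TTX but was on 3 CTL arrays, and was at least 7.75-fold higher (3.38, and 1.16 with normexp). These probes were dim, and with normexp the differences of MMP12, OR10AL5B and TMPRSS11D were 0.68, 0.78 and 0.73, still called, while that of GML (0.53) was not.

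SCN11A, a tetrodotoxin-resistant Na+ channel, was measured well above background throughout. It read 7.51, 7.5, 7.76 and 7.62 with BC, 6.44, 6.47, 6.64 and 6.38 in CTL and 6.52, 6.84, 6.4 and 6.74 with TTX (1.97-fold, TTX minus CTL 0.14, 95% interval -0.1 to 0.38). Genes that only BC lowered included signalling proteins and EGR2. GNA15, a G protein alpha subunit that couples to phospholipase C, read 4.58, 4.18, 4.03 and 4.57 with BC against 6.16 to 6.85 in CTL and 6.54 to 7.11 with TTX (5.77-fold, a difference of -2.53 that was -1.14 with normexp). SLC1A6, a glutamate transporter, read 8.4 to 9.53 with BC, 10.81 to 11.24 in CTL and 11.14 to 11.42 with TTX (4.86-fold). EGR2, an inducible zinc finger factor, read 9.09 to 9.5 with BC, 10.73 to 11.06 in CTL and 11.03 to 11.55 with TTX, and was thus lowest with BC (4.07-fold, limma adjusted p = 2.5e-06). In all 3 genes the BC arrays stood alone, while CTL overlapped with TTX. CST6, a cystatin, OSR1, a zinc finger factor, and RASL10A, a small GTPase, were 4.4-fold, 4.24-fold and 3.76-fold lower with BC (OSR1 -2.08, and -1.03 with normexp), and KCNJ12, an inward rectifier K+ channel, 1.86-fold.

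**Figure D3:**
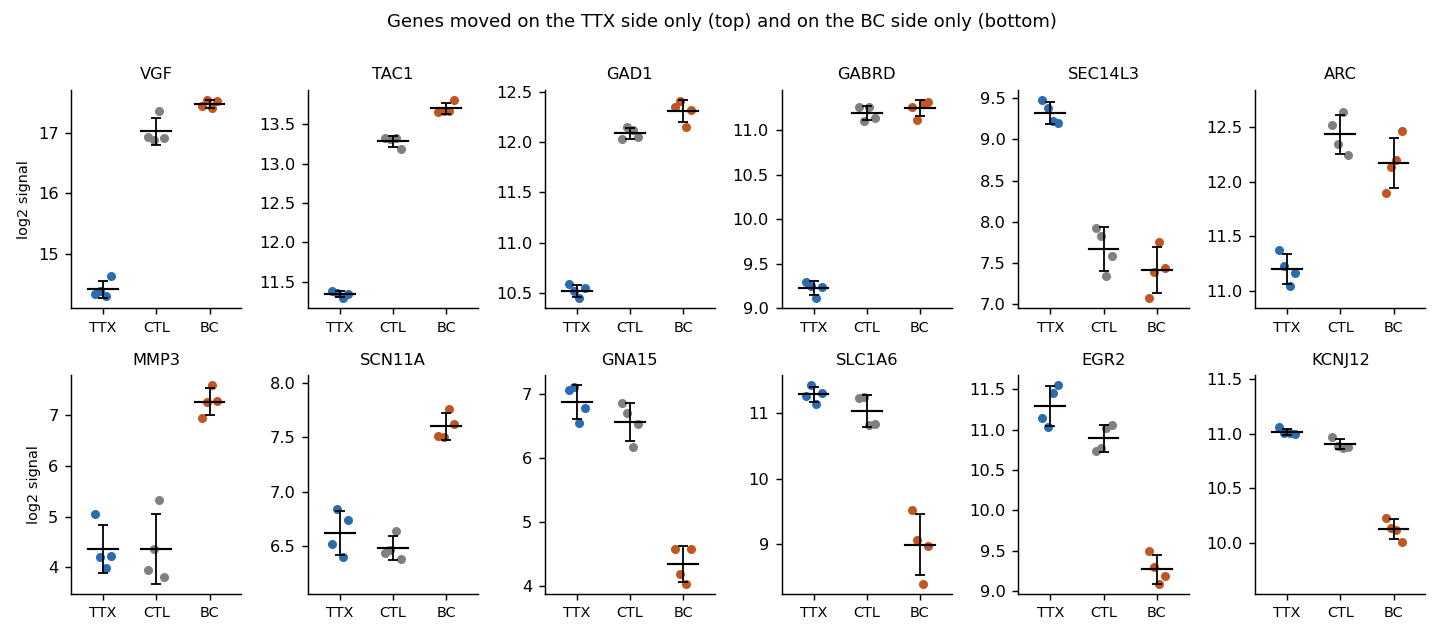
Log2 normalized intensity of 12 genes assigned to 1 treatment by the calls, 1 point per array and a bar at the mean ± SD of 4 arrays. In the upper genes (VGF, TAC1, GAD1, GABRD, SEC14L3 and ARC) the TTX arrays stand apart from CTL and BC, and in the lower genes (MMP3, SCN11A, GNA15, SLC1A6, EGR2 and KCNJ12) the BC arrays do.

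Promoters are shown for genes of these classes because the factors named above act through CRE and AP-1 letters. The window is the 180 bases before the annotated start in the RefSeq promoter table for build GRCr8, written along the gene's strand, with the letters of the match in capitals. VGF (chr12:25277021-25277200, minus strand) and DUSP1 (chr10:17184673-17184852, plus strand), a MAP kinase phosphatase that spanned the range, hold the palindrome TGACGTCA. MMP3 (chr8:12925101-12925280, plus strand), MMP12 (chr8:12866472-12866651, plus strand), TMPRSS11D (chr14:22108349-22108528, plus strand) and MEPE (chr14:5736859-5737038, minus strand) hold TGANTCA.
VGF: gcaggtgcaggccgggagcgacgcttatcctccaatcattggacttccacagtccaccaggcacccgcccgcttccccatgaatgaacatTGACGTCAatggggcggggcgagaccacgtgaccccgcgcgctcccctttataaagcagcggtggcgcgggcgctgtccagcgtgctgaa
DUSP1: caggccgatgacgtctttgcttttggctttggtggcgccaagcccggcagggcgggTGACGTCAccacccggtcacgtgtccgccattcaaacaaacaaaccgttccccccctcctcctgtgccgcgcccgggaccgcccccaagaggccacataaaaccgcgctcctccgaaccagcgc
MMP3: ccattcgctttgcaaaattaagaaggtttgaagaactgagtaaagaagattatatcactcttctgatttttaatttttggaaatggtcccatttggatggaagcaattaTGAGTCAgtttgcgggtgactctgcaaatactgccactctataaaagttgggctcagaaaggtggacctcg
MMP12: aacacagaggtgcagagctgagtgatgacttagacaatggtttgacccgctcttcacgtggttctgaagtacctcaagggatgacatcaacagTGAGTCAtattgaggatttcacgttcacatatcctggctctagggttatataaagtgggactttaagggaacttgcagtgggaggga
TMPRSS11D: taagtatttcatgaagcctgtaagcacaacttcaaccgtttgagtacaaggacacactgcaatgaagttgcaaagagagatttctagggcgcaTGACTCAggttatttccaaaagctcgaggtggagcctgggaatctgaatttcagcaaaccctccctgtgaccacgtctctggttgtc
MEPE: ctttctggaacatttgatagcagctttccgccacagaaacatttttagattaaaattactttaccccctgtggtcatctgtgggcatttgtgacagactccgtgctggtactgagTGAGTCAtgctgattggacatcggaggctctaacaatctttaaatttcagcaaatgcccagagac
The first capital lies 90 bases before the start in VGF, 124 in DUSP1, 71 in MMP3, 87 in both MMP12 and TMPRSS11D and 65 in MEPE.

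Both sets of letters were then counted in the table's windows, from 250 bases before to 50 after the start, for the 24206 genes with a single promoter there, of which 11876 were measured. Both read the same on either strand, and neither contains the other. The CRE half-site CGTCA, which the palindrome contains, was counted on both strands as well. AP-1 letters were in 10 of 27 promoters of genes that only BC raised (37%), against 733 of all 11876 measured (6.17%) and 1775 of all 24206 (7.33%). The 10 were LEF1, MMP12, MMP3, OR10AL5B, PIP, RGD1564712, SCGN, SLC6A5, TMPRSS11D and TNFAIP6. They were in 8 of 96 promoters of spanning genes higher with BC (8.33%), 2 of 66 of genes that only TTX lowered (3.03%) and 0 of 18 of genes that only BC lowered. CRE letters were in 6 of the 66 promoters of genes that only TTX lowered (9.09%), namely ABCG2, BTG2, GPR6, HS3ST2, SST and VGF, in 4 of the 96 spanning genes higher with BC (4.17%), namely DUSP1, KIF18A, NUBPL and TH, and in 0 of 27 that only BC raised, against 298 of all measured (2.51%). The half-site was in 31.8% of the promoters of genes that only TTX lowered, 32.3% of those of spanning genes higher with BC and 22.2% of those that only BC raised, against 27% of all measured and 22.2% of all 24206. These shares were not tested, the genes were chosen on the same arrays, and a match in a window is a description of letters.

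A small set of genes moved the same way with both treatments. There were 66, of which 29 were higher and 37 lower than CTL with both. LCP2, an adaptor of immune receptor signalling, read 6.38 to 6.85 with TTX and 5.69 to 6.27 with BC against 3.77 to 4.54 in CTL (TTX minus CTL 2.42, BC minus CTL 1.87, limma adjusted p = 2.51e-05 and 0.000158). A second LCP2 probe was called the same way, with 2.48 and 2.33. CARTPT, the precursor of the CART peptide, read 6.7 to 7.32 with TTX, 7.62 to 8.15 with BC and 8.4 to 9.66 in CTL, and was also called between TTX and BC (difference 0.86), a call that was lost without TTX replicate 3 or 4 or BC replicate 1, 3 or 4. For both genes the treatments lay on 1 side of CTL without overlap. Further genes raised by both were CD244L1, CPB1, DSP, TNFRSF1B and GASK1B, by 0.8 to 1.4 in each comparison, and further genes lowered by both were ADRA1D, KLK8, CATSPERG and TBC1D2, by 0.84 to 1.28.

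Among the 18 inducible transcription factors listed, 5 were higher with BC and 3 with TTX (44.4% called, median difference 0.13). NR4A1 and NR4A2, orphan nuclear receptors, and NPAS4, a factor specific to neuronal calcium entry, spanned the range. NR4A1 read 11.1 to 11.3 with TTX, 12.2 to 13.07 in CTL and 13.29 to 13.66 with BC (4.63-fold), NPAS4 5.03 to 5.66, 5.7 to 6.65 and 7.17 to 7.58 (4.17-fold), and NR4A2 was 3.77-fold higher with BC. With normexp the difference of NPAS4 was 1.2 against 2.06. FOS (difference 0.9) and CREM (0.63) were also higher with BC, whereas EGR2, KLF4 (-1.25) and KLF10 (-0.72) were higher with TTX. Among those not called after 48 h were FOSB (0.04), FOSL2 (-0.02), JUNB (0.27), EGR1 (-0.04) and ATF3 (-0.09). Of 18 activity-regulated effector genes, 7 were higher with BC (PCSK1, RASL11A, RGS2, PLK3, TNFAIP6, ARC and NPTX2) and 2 with TTX (INHBA and NPTX1, -0.84 and -0.69). PCSK1, the prohormone convertase that cleaves neuropeptide precursors, was 5.47-fold higher with BC and spanned the range by its brightest probe. A second PCSK1 probe was called between TTX and BC (1.98) but not for BC minus CTL (0.58, limma adjusted p = 0.119).

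Feedback inhibitors of MAP kinase signalling were called in 1 direction. Of 14 measured, 8 were higher with BC and 0 with TTX, with a median difference of 0.67. They were the Sprouty proteins SPRY4 (1.49), SPRY2 (1.18) and SPRY1 (0.89), SPRED3 (1.25), and the phosphatases DUSP1 (1.45), DUSP4 (1.25), DUSP6 (0.72) and DUSP5 (0.62). With normexp that of SPRY4 was 0.71. DUSP1 read 8.67 to 9.02 with TTX, 9.31 to 9.83 in CTL and 10.21 to 10.6 with BC. Against CTL, BC raised 7 of the 14 and TTX lowered 2. Of 21 secreted growth factors, 4 were higher with BC and 2 with TTX. BDNF, the neurotrophin whose transcription follows calcium entry, read 10.41, 10.36, 10.16 and 10.48 with TTX, 11.63, 11.87, 12.15 and 11.53 in CTL and 12.78, 12.79, 13.04 and 12.93 with BC (5.8-fold, difference 2.54, SE 0.133). BMP3 (1.28) and IGF1 (0.65) were also higher with BC, and TGFB3 (-1.81) and TGFB2 (-0.9) with TTX. The groups of BDNF were fully apart, with CTL 57% of the way to BC.

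Neuropeptides and their processing proteins had a median difference of 1.02 over the 30 measured, the largest of the 23 functional lists. A total of 17 were higher with BC, 0 with TTX, and 9 of them spanned the range. In falling order the differences were CORT 5.14, PTHLH 4.84, CRH 4.27, PNOC 3.25, GAL 3.16, VGF 3.07, TRH 2.52, VIP 2.46, TAC1 2.36, NPY 2.2, PENK 1.86, SST and NPPC 1.74 each, SCG2 1.2, UCN 1.18, CARTPT 0.86 and PCSK2 0.85. CRH, corticotropin-releasing hormone, read 3.87 to 4.67 with TTX, 5.64 to 6.65 in CTL and 8.21 to 9.01 with BC, and its difference was 2.45 with normexp. It thus moved in the same direction as the gene for its binding protein. PNOC, the nociceptin precursor, read 10.22 to 10.57, 12.57 to 13.5 and 13.47 to 13.71, so that CTL and BC overlapped on 1 CTL array. Against CTL, TTX lowered 14 of the 30, BC raised 9 and BC lowered 1, CARTPT. The 2 peptides of interneurons SST and NPY differed in where CTL lay, SST at 15.57, 17.26 and 17.31 (means of TTX, CTL and BC) and NPY at 15.41, 16.81 and 17.61.

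Many of these peptides are made by GABAergic interneurons, whose markers moved as well. Of 15 such markers measured, 11 were higher with BC and 1, CALB2, with TTX (median 0.84), and their mean level was 10.53 to 10.65 per array with TTX, 11.33 to 11.42 in CTL and 11.47 to 11.59 with BC. The called markers include the GABA enzymes and peptides themselves, and also LHX6 (0.76), DLX5 (0.69), ERBB4 (0.75), RELN (1.14) and PVALB (1.08), which mark interneuron identity. Of 9 glutamatergic markers, 4 were higher with TTX (PROX1, NEUROD2, NEUROD6 and SLC17A6) and 1 with BC, with a mean level of 11.03 to 11.27 with TTX, 10.7 to 11.02 in CTL and 10.44 to 10.7 with BC. The part of these shifts in the peptide and GABA results was not tested. The 24 genes of GABA synthesis, transport and receptors counted 8 higher with BC and 1 with TTX (37.5% called, median 0.32). The vesicular GABA transporter SLC32A1 (0.84) was higher with BC, and GABBR1, a subunit of the GABA-B receptor, was 1.22 log2 units higher with TTX. SLC6A13 (1.41) and GABRA6 (1.84) were dim, and GABRA6 lost its call when the background was treated otherwise.

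The K+ channel subunits moved in both directions. Of 74 measured, 25 were higher with BC and 8 with TTX (44.6% called, median 0.12). KCNA4, a subunit of A-type channels, read 10.2, 10.07, 10.13 and 10.26 with TTX, 11.12, 11.24, 11.42 and 11.15 in CTL and 12.01, 11.98, 12.01 and 12.06 with BC (3.61-fold, SE of the difference 0.0729). LGI1, a secreted partner of Kv1 channels, was 2.76-fold higher with BC and KCNMB2, an auxiliary subunit of large-conductance calcium-activated channels, 3.1-fold. These 3 were the spanning members, with CTL between 47.8% and 57.8% of the way. TTX alone lowered 5 (KCNS3, KCNC2, KCNAB3, KCNIP3 and KCNV1) by 0.75 to 1.66 from CTL, and BC alone lowered KCNJ12. KCNA1 (1.24) and KCNK2 (1.17) were raised by BC, but the position of their CTL level was not called. Those higher with TTX included KCNS2 (-1.25), KCNJ16 (-1.2), KCNMB4 (-1.11), KCNJ10 (-1.07), KCNJ12 (-0.9), KCNK13 (-0.87) and KCND3 (-0.66). KCNJ10 and KCNJ16 are channels of glia, and in both CTL lay close to BC.

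**Figure D4:**
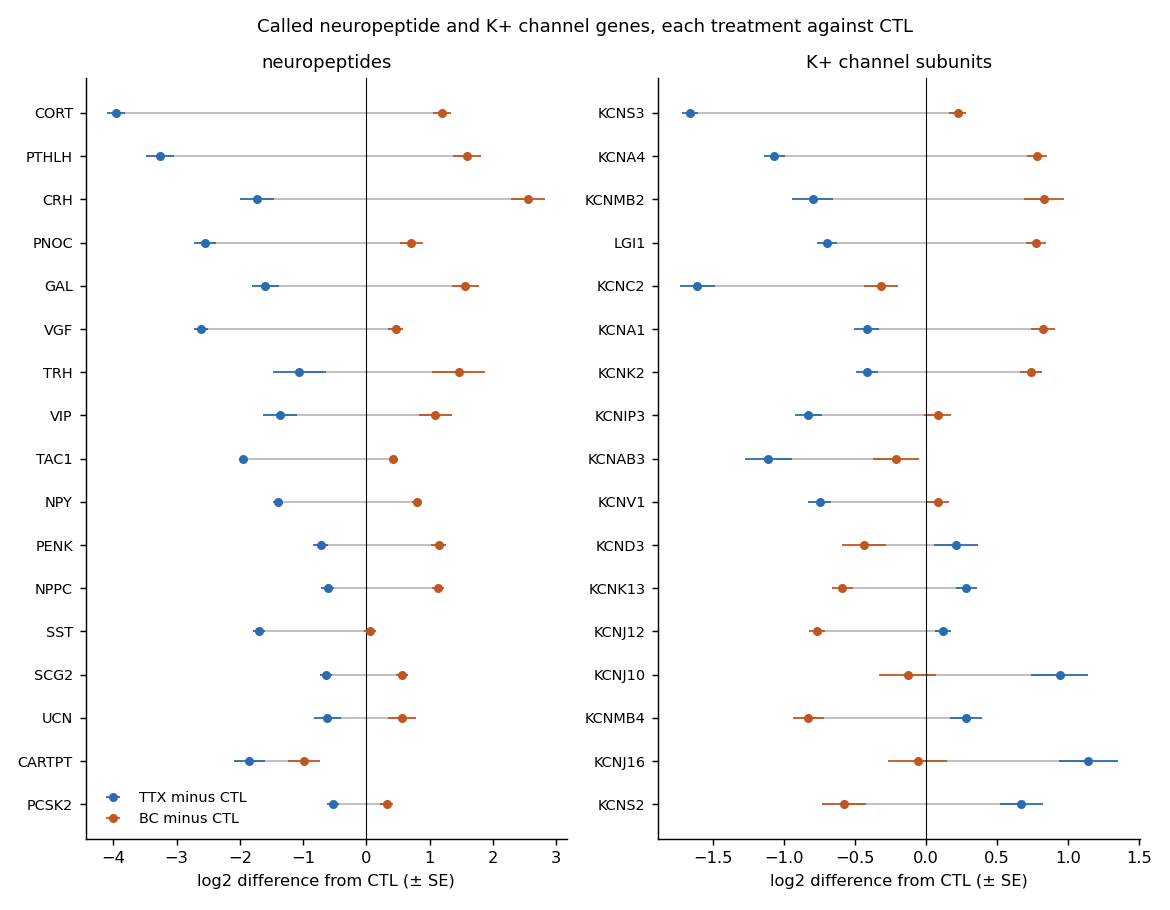
TTX minus CTL and BC minus CTL differences in log2 units, ± SE of the fit, for the 17 called neuropeptide genes and for the called K+ channel subunits named in the text. The 17 peptides lie at negative TTX values, led by CORT (-3.95) and PTHLH (-3.26), and 16 of them at positive BC values, the exception being CARTPT (-0.99). The K+ channel subunits lie on both sides of 0.

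Other membrane proteins were called less uniformly. Of 11 Na+ channel subunits, 3 were higher with BC, SCN11A and SCN1A (0.83) among them, and SCN3B (-0.89) with TTX. The 15 voltage-gated Ca2+ channel subunits had 3 called, CACNA2D1 (0.69), CACNA2D2 (0.88) and CACNB4 (0.72), all higher with BC, while the median of the list was -0.15. CACNA2D2 was not called with other treatments of background. Of 39 genes of calcium handling, 7 were higher with BC, led by TRPC6 (2) and NCALD (1.99), and 6 with TTX, led by MCUB and CALB2 (-1.47), so that no direction was shared. Of 27 ionotropic glutamate receptor genes, 4 were higher with BC and 2 with TTX. GRIN1, the obligatory NMDA receptor subunit, was 0.67 higher with BC and GRIN2A 0.86 higher with TTX. Of the 8 metabotropic receptors, GRM8 (2.89) and GRM4 (0.82) were higher with BC and 2 were higher with TTX, of which GRM5 (-0.6) was not called under other background settings or without TTX replicate 1 or 2 or BC replicate 1 or 2.

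**Figure D5:**
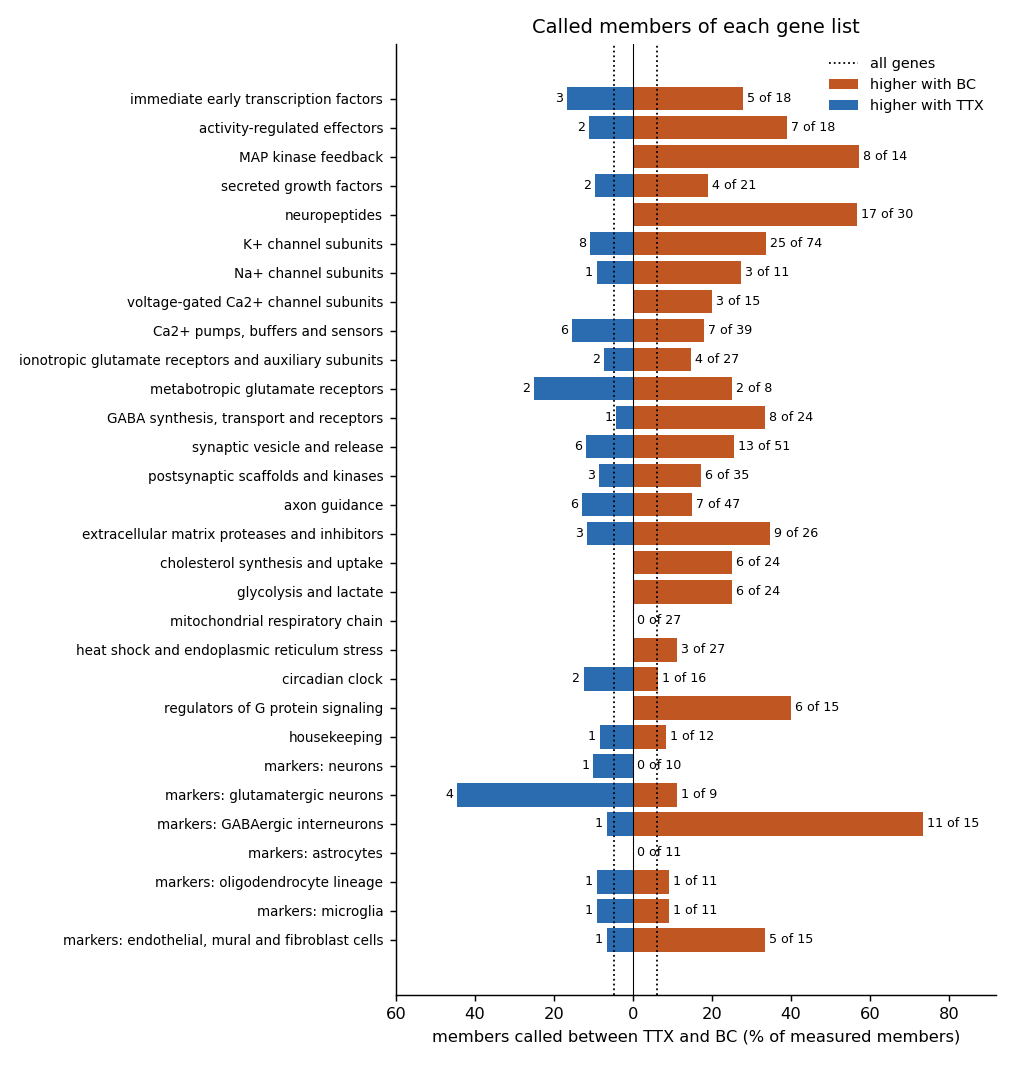
Percent of the measured members of each gene list that were called higher with BC (to the right) or higher with TTX (to the left), with dotted lines at the share of all genes tested, 6.19% and 4.68%. Neuropeptides, MAP kinase feedback genes and GABAergic markers reach furthest to the right, and no mitochondrial respiratory chain gene is called in either direction.

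Synaptic genes were called in both directions as well. Of 51 vesicle and release genes, 13 were higher with BC and 6 with TTX. LIN7A, a scaffold of cell junctions, was 1.62 higher with BC, SYNJ2, a phosphoinositide phosphatase, 1.73 and SYT10, a synaptotagmin, 1.66. RIMBP2, a scaffold of the active zone and the BC-side gene of this list, was raised by BC and not called for TTX (0.97 and -0.15 from CTL). SV2C (at least 1.96-fold higher with BC) was on the TTX side. Its call, and those of SYT10 and of SEMA3D, a semaphorin named below, were lost with normexp, without background correction and in the deposited log2 values. Of 35 postsynaptic genes, 6 were higher with BC and 3 with TTX. AKAP5, an anchoring protein for kinases, was lowered by TTX (-1.05 from CTL, against -0.13 for BC minus CTL), and CAMK2N1, an inhibitor of CaMKII, was 1.31 higher with TTX. Of 47 axon guidance genes, 7 were higher with BC, among them SEMA3D (2.09), ROBO2 (1.39) and PLXND1 (1.17), and 6 with TTX, among them SEMA3C, EPHB1 (-0.96) and ROBO1 (-0.88), so that members of 1 receptor family, ROBO1 and ROBO2, went opposite ways.

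Extracellular proteases and their inhibitors had 9 of 26 higher with BC and 3 higher with TTX. MMP9, gelatinase B, read 3.85 to 4.74 with TTX, 4.42 to 6.25 in CTL and 6.82 to 7.76 with BC (8.19-fold, a difference of 3.03 that was 1.42 with normexp), with TTX and CTL overlapping. PLAUR, the urokinase receptor, spanned the range, with BC at least 4.69-fold over TTX (2.64, and 0.77 with normexp). MMP17 (1.51), MMP13 (1.28), RECK (0.72) and TIMP1 (0.69) were higher with BC too, while MMP2 (-0.66), TIMP3 (-0.61) and ADAMTS5 (-1.05) were higher with TTX. Of 15 markers of endothelial, mural and fibroblast cells, 5 were higher with BC (LUM, DCN, CLDN5, VTN and RGS5), 1 with TTX, and most were not called. RGS5 was well above background on 0 TTX, 2 CTL and 2 BC arrays. The mean level of the markers was 6.58 to 6.73 with TTX, 6.79 to 7.02 in CTL and 7.17 to 7.69 with BC. PECAM1, which defines endothelium and was counted as higher with TTX, was not well above background anywhere. The part of these cells in the protease results was not tested. Astrocyte markers had 0 of 11 called (3 higher with TTX at an unadjusted p under 0.05 in limma), and microglial markers had a mean of 4.43 to 5.05 with TTX, 4.59 to 4.76 in CTL and 4.53 to 4.68 with BC, with TREM2 higher with BC and P2RY12 with TTX.

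Metabolic lists were called towards BC or not at all. Glycolysis and lactate genes had 6 of 24 higher with BC and 0 with TTX (median 0.35), and in all 6 the CTL mean was nearer to BC than to TTX. SLC16A3, the lactate exporter MCT4, read 9.21, 9.36, 7.73 and 8.95 with TTX, 12.02, 11.86, 12.46 and 10.6 in CTL and 11.61, 10.98, 11.71 and 11.13 with BC (5.84-fold). HK2, a hexokinase, was 2.81-fold higher with BC (1.49, and 0.61 with normexp), the glucose transporter SLC2A1 1.98-fold and the kinase PDK1 1.99-fold. The call of SLC2A1 was lost in the 8 arrays alone with the replicate block. TTX lowered 5 of the 24 from CTL and BC raised 0. Cholesterol genes had 6 of 24 higher with BC (STARD4, MVK, TM7SF2, EBP and NSDHL among them) and 0 with TTX. The 27 mitochondrial respiratory chain genes had 0 called in either direction (median 0.09), with 7 higher with BC and 0 with TTX at an unadjusted p under 0.05 in limma. Regulators of G protein signalling had 6 of 15 higher with BC and 0 with TTX, led by RGS4 at 12.45 to 12.61 with TTX, 14.84 to 15.3 in CTL and 16.2 to 16.41 with BC (14.1-fold). Heat shock and endoplasmic reticulum stress genes had 3 of 27 higher with BC (HSPA1A, HSPA4L and CHAC1), or 11.1% against the 10.9% of all genes. Among the 15289 genes matched to a RefSeq symbol, 1997 were called, a larger share than that of this list. The call of HSPA1A was lost without TTX replicate 1 or 2 or BC replicate 1 or 2 and with the mean of its probes, of which a second was not called (0.33, limma adjusted p = 0.189). That of HSPA4L was lost with normexp, without background correction, and without TTX replicate 1 or 2 or BC replicate 2, and both were lost in the 8 arrays alone with the replicate block. A second HSPA4L probe was called higher with BC (1.23, limma adjusted p = 5.01e-06). It read -0.63 for TTX minus CTL and 0.61 for BC minus CTL. Of 16 clock genes CRY2 (0.66) was higher with BC and PER3 (-1.25) and TEF (-1.22) with TTX. The call of CRY2 was lost without TTX replicate 3 and that of PER3 in the 8 arrays alone with the replicate block. Of 12 housekeeping genes, 2 were called, PGK1 higher with BC and GUSB with TTX, while GAPDH (0.3) and ACTB (-0.08) were not called. GAPDH missed only the fold threshold (limma adjusted p = 0.0095), and its TTX values lay below all its BC values. A second GAPDH probe did not pass (0.19, limma adjusted p = 0.339). The call of GUSB was lost with 5 of the 8 TTX and BC arrays left out in turn and with the other treatments of background, which also ended that of RGS5.

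Over the 23 functional lists, 19 had more members higher with BC than with TTX, 8 had none higher with TTX, and 1 had none higher with BC. These lists were drawn up with earlier results known, and their counts stand beside the 6.19% and 4.68% of all genes. Among the 15289 genes matched to a RefSeq symbol, 1195 were called higher with BC and 802 with TTX, larger shares than those of all genes. At an unadjusted p under 0.05 of limma with no fold threshold, members higher with TTX numbered 1 neuropeptide gene, 2 MAP kinase feedback genes, 1 gene each of glycolysis, cholesterol and the regulators of G protein signalling, 7 heat shock and endoplasmic reticulum stress genes (9 with BC) and 3 voltage-gated Ca2+ channel subunits (3 with BC).

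For some genes the answer depended on the probe or the slide. The brightest HOMER1 probe did not differ (0.01), whereas a second was called higher with TTX (-1.05, limma adjusted p = 7.72e-06), with 0.35 for TTX minus CTL and -0.7 for BC minus CTL. GRIA4 had a brightest probe at -0.48, short of the fold threshold, and a second called higher with BC (0.66, adjusted p = 3.66e-05 in limma). RASGRF1 was not called (0.09, SE 0.474), with 12.72, 12.78, 14.1 and 14.19 on the TTX arrays, 12.84, 13.25, 14.35 and 14.35 in CTL and 14, 14.06, 13.09 and 13.02 with BC. Its arrays fell into a lower and an upper level that followed the slide pairs in each group. A second RASGRF1 probe was not called between TTX and BC (0.54, SE 0.205, limma adjusted p = 0.0835). That probe was called lower with TTX than in CTL (-0.75, limma adjusted p = 0.0434). NOS1 was 1.86-fold higher with TTX, with CTL at the level of BC and its position not called (limma adjusted p = 0.08). KCNG3, whose subunit is silent on its own, was lowered by BC from CTL (-0.93) and did not pass between TTX and BC (-0.4, adjusted p = 0.0902 by limma).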

How the data were processed

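The 12 RNA samples were labelled with Cy3 and hybridized to 1-color rat arrays, 4 each for CTL, TTX and BC. The authors scanned the arrays and extracted the deposited intensity of each spot with Feature Extraction 9.5.1.1, whose processed signal is background-subtracted. Their deposited log2 values, made with limma, served as an alternative. The submitters' genome build of the probe coordinates was not needed, and coordinates are those of the RefSeq promoter table.

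Here the processed intensity was taken to log2, quantile-normalized over the 12 arrays, with outlier spots and control spots left out, and fitted in limma 3.58.1 (R 4.3.3) with 1 mean per group. BC minus TTX, each treatment minus CTL, and CTL minus the midpoint were tested with moderated statistics and Benjamini-Hochberg adjustment over all probes. A call needed an adjusted p under 0.05 and a fold of at least 1.5 (0.667 downwards). The script was tested on simulated data. Tables were handled with the R package data.table (1.17.8), pandas 2.3.3 and numpy 2.4.6 in Python 3.11.15 and figures with matplotlib 3.10.9.

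The brightest probe stood for a gene, named by the file's symbol or through RefSeq accessions, symbols and synonyms. The genes named were, among those matched to a RefSeq symbol, whose 4 arrays of TTX or of BC all exceeded background and whose TTX and BC values were apart, the 12 largest differences in each direction and the 6 largest of each class and direction, then up to 4 called members of each list, 6 control and marker genes, and genes the study text names for both treatments. Further list members, and those in promoter counts, were named after their values were seen. Some genes that these rules would name, and that the counts include, are not reported here. The members and lists were chosen with earlier results of these data known. The alternatives were other treatments of background, scaling, probe filters, slide and replicate blocks, no fold threshold, the 8 arrays alone, and leaving out each array. The number of arrays limits the precision.

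Replicate numbers did not pair the samples. Same-numbered TTX and BC arrays deviated in opposite ways (r = -0.65 to -0.61) and lay in different slide pairs, while same-numbered TTX and CTL arrays lay in the same slide pair and deviated together (r = 0.59 to 0.71). No 2 arrays of a group were identical, the highest correlation of raw values being 0.9948.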

Additional observations from a re-analysis of the deposited data

Results flagged for a closer look

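Of 459 groups of 4 arrays of the named genes, 22 held an array whose gap to the nearest of the others took up more of the group's range than Dixon's 95% critical value, about the 1 in 20 that chance gives. Values are log2 intensities, and 21 of the 22 are given. In CTL the arrays that stood apart were those of CACNA2D2 (5.78 in replicate 4), CNMD (4.53 in replicate 2), DUSP4 (7.12 in replicate 4), MCUB (9.88 in replicate 3), RASGRP1 (5.98 in replicate 3), RGS4 (15.30 in replicate 3), SLC2A1 (11.95 in replicate 4), TAC1 (13.18 in replicate 4), TMPRSS11D (1.47 in replicate 1), TNFRSF1B (2.88 in replicate 2) and VGF (17.37 in replicate 3). With TTX they were those of CAMK4 (8.97 in replicate 3), GAD2 (9.26 in replicate 1), KCNJ12 (11.06 in replicate 1), KCNK2 (11.71 in replicate 4), OGN (6.71 in replicate 4), PCSK1 (8.50 in replicate 2) and SEMA3C (7.36 in replicate 3). With BC they were those of CASR (4.30 in replicate 2), DUSP1 (10.60 in replicate 3) and TAC1 (13.81 in replicate 4). The gaps were small beside the BC minus TTX differences of CAMK4, GAD2, KCNJ12 and TAC1, whose nearest other arrays read 8.92, 9.09, 11.01 and, for TAC1, 13.31 in CTL and 13.67 with BC. CTL replicate 3 was the array concerned in RGS4, VGF and MCUB, each towards BC, and in RASGRP1.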

How the results depend on the processing

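The 4579 probes called between TTX and BC became 2608 with normexp, 2753 with the median signal and no background correction, 2729 in the deposited log2 values and 9867 with no fold threshold. The 315 spanning genes became 174, 185 and 185 under the same 3 treatments of background and 875 with no fold threshold, and the 66 genes moved the same way by both became 17, 19, 18 and 207. Of the spanning genes, 171 stayed in that class with normexp. With slide as a block the TTX side held 345 genes and the BC side 244. With each slide pair averaged, spanning, TTX-side, BC-side and same-way genes numbered 0 by limma, against 394, 742, 518 and 223 at an unadjusted p under 0.05. Leaving out each array in turn gave 4251 to 4601 probes, 270 to 310 spanning genes, 100 to 208 on the TTX side, 71 to 150 on the BC side and 46 to 93 moved the same way.

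With the replicate number as a block, the fit called 4354 probes and placed 272 spanning genes, 72 on the TTX side, 64 on the BC side and 48 moved the same way, and the 8 arrays alone with that replicate block gave 3085 probes. These numbers did not pair the samples. Between TTX and BC, no array's deviation correlated best with that of its own number, and same-numbered arrays lay in different slide pairs.

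Of 3823 values of the named genes' BC minus TTX differences under the alternatives, 3714 stayed on their side of the threshold, 97 lost the call, 12 gained one and 0 reversed. Values that stayed uncalled could change sign, as in HOMER1 (-0.521 to 0.0557) and RASGRF1 (-0.15 to 0.343). Scaling to the 75th percentile moved the median of all genes from -0.021 to -0.098. The size of many differences changed with the background treatment, also for probes well above background, and the number of arrays limits all intervals.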
